A study of Mus musculus with 6 samples.

Results

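Osteoclasts are bone-resorbing giant cells that form when cells of the macrophage lineage fuse. The ligand RANKL binds its receptor RANK on the precursor, the adaptor TRAF6 and receptors that signal through ITAM adaptors relay the signal, and the transcription factor NFATc1 then switches on genes for fusion, acid secretion and matrix breakdown. Macrophages share the lineage and the growth factor receptor CSF1R with osteoclast precursors, so some of these genes are active in them without bone resorption. The 9 genes described here were listed by symbol for their known roles: the receptors Tnfrsf11a, Oscar and Calcr, the transcription factor Nfatc1, the fusion genes Dcstamp and Ocstamp, and the resorption genes Acp5, Ctsk and Mmp9. All 9 were found among the 46603 genes counted.

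The cells were bone marrow-derived macrophages of C57BL/6/J mice aged 7 weeks, grown with 20% L929-conditioned medium, a source of the growth factor CSF1, and 10% serum. RANKL is not among the additives that the labels' protocols name. At day 6 the cells were replated, and 6 h later they received medium conditioned by cancer cells. In 3 libraries this medium held its lipids and in 3 libraries it lacked them, and no group without conditioned medium was analysed here. The labels name neither the cancer cell line nor the method of lipid removal, the length of exposure or any pooling of mice. No label ties a replicate to its own mouse or culture, so the p-values rest on the variation among these 6 libraries, part or all of which could be technical.

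Libraries held 19429022 to 25323053 counts, and replicate 1 without lipids was the library whose omission moved the number of called genes most. All 10 macrophage markers passed the count filter, with a summed level of 32096 to 32546 counts per 1000000 (CPM) with lipids and 31294 to 36441 CPM without, of which Lyz2 alone averaged 19745 and 22178 CPM. Of these markers 3 were higher with lipids, Mrc1 (log2 fold change 0.75), Itgam (0.56) and Fcgr1 (0.29), and Cd68 was lower (-0.55), at edgeR adjusted p-values of 1.49e-05 to 0.00815. Of 10 neutrophil, 7 mast cell and basophil, and 8 epithelial markers, 0 passed that filter. Of 8 dendritic cell markers 2 passed it, with 0 called, and the list summed to 5.61 to 6.53 CPM with lipids and 3.54 to 6.31 CPM without. Of 8 B and T cell markers 2 also passed it, and the list summed to 7.91 to 9.07 CPM with lipids and 12.6 to 19.7 CPM without. Most of that sum was Cd4, which was lower with lipids, as Ctsk and Acp5 were (log2 fold change -1.16, edgeR adjusted p = 0.000879), while the T cell genes Cd3e and Cd8a had 0 counts in every library. The part of these marker differences in the results was not tested. The label osteoclast-like was not settled by these genes, which were divided. Calcr was at 0, and Oscar, Ocstamp and Car2, the carbonic anhydrase that supplies protons for resorption, lay under the filter. Tnfrsf11a, Nfatc1, Dcstamp, Acp5, Ctsk and Mmp9 passed it. The 9 genes are therefore called osteoclast genes only for what they are known from.

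With lipids the macrophage cultures held less transcript of 2 resorption genes, the collagen-degrading protease gene Ctsk and the acid phosphatase gene Acp5. The fusion gene Dcstamp and the transcription factor gene Nfatc1 showed no difference past the test. Of the 9 genes 6 passed the filter on low counts and were tested. Of these 6, 2 were lower with lipids by the quasi-likelihood test of edgeR (adjusted p under 0.05), against 6.87% of all 12767 tested genes. The number higher was 0 with edgeR, DESeq2 and limma-voom, against 4.58% of all genes with edgeR, and 1 of the 6, Tnfrsf11a, was higher at an unadjusted p under 0.05. Groups did not overlap in the lower direction for 2 of the 6 genes, against 15.8% of all tested genes, and in the higher direction for 1, against 14.7%. With 6 genes tested, these counts describe the genes one by one rather than the group.

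**Figure D1:**
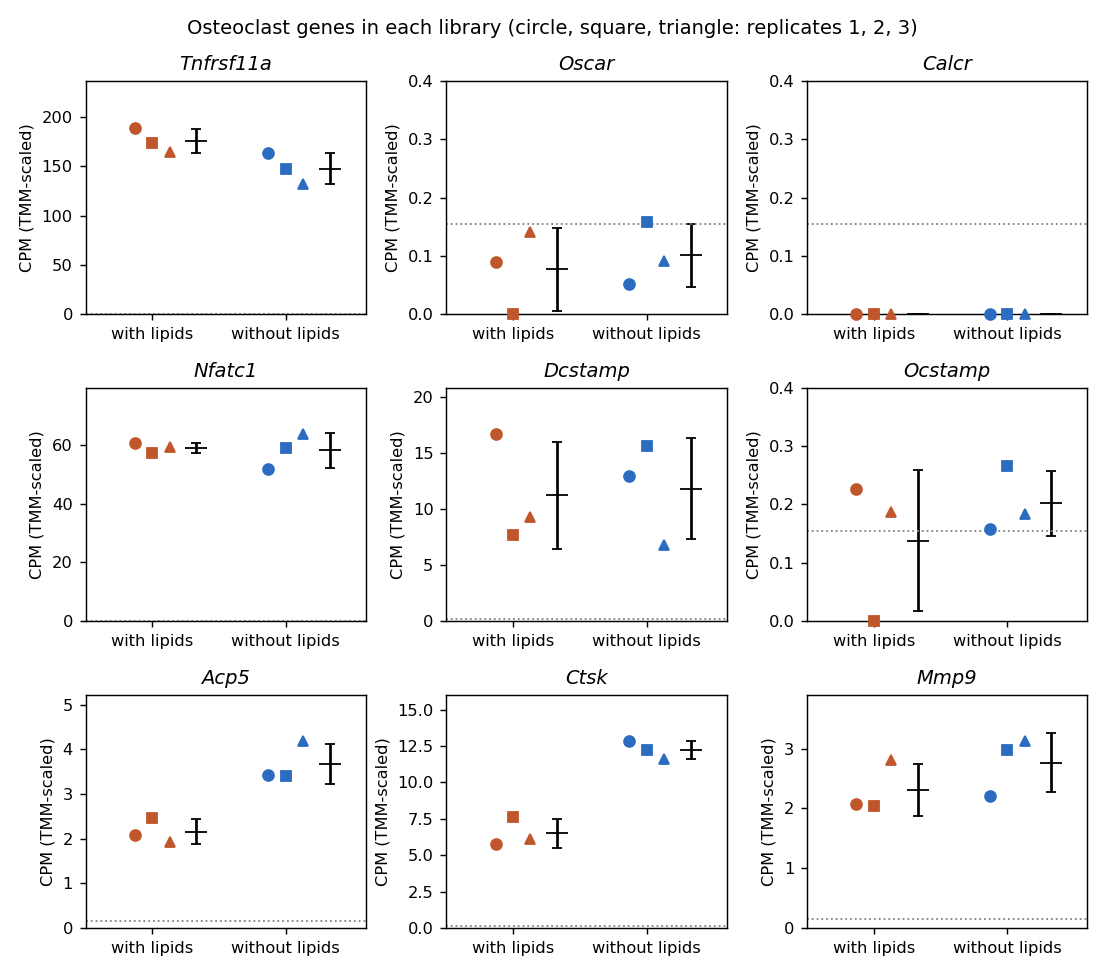
Each panel shows one of the 9 genes in CPM with TMM scaling; circles, squares and triangles are replicates 1, 2 and 3, black bars are mean ± SD (n = 3), and the dotted line is the CPM of 3 counts in the shallowest library. Ctsk and Acp5 separate by group with the higher values without lipids, Dcstamp spreads widely inside both groups, and Oscar, Ocstamp and Calcr lie near or under the dotted line.

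Tnfrsf11a, which encodes RANK, was the most abundant of the 9 genes. It lies on chromosome 1 (105780718 to 105847981, GRCm38). Its level was 189, 174 and 165 CPM with lipids and 164, 148 and 132 CPM without. All libraries with lipids were above all libraries without, but the closest values of the groups nearly touched. The means were 176 ± 12.4 and 148 ± 15.9 CPM (SD, n = 3 per group), and the log2 fold change, with minus without lipids, was 0.25 (SE 0.08, 95% interval 0.07 to 0.44). This did not pass the test over all genes (edgeR adjusted p = 0.0783, unadjusted p = 0.0118). The gene passed when replicate 1 without lipids was left out (log2 fold change 0.34, edgeR adjusted p = 0.00248), where 12.0% of all genes were higher and 15.1% lower. It also passed when libraries were scaled by their totals alone (0.33, edgeR adjusted p = 0.025), where 9.72% of all genes were higher and 4.67% lower. The other settings in which it passed were no filter on low counts (0.26, edgeR adjusted p = 0.00567), with 4.40% of all genes higher and 5.42% lower, and the replicate number as a block (0.25, edgeR adjusted p = 0.0235), with 5.60% higher and 7.34% lower.

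Oscar encodes a collagen-binding receptor that signals through the adaptor FcRγ and co-stimulates osteoclast precursors. It had 2, 0 and 3 counts in the libraries with lipids and 1, 3 and 2 in those without. All 6 libraries were at or under 3 counts, the most that a reading of 0 can hide, so neither a level nor a difference could be measured at this depth.

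Calcr, the calcitonin receptor gene of mature osteoclasts, had 0 counts in all 6 libraries. A count of 0 allows up to 3 counts, or 0.118 to 0.154 CPM on library totals. That limit covers counting error only. Both receptors were thus at the floor in both media, whereas RANK transcript was not.

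Nfatc1, which encodes the factor that drives osteoclast formation, was at 60.7, 57.1 and 59.2 CPM with lipids and 52.0, 58.8 and 63.5 CPM without. The values without lipids lay on both sides of those with lipids. The means were 59.0 ± 1.8 and 58.1 ± 5.8 CPM (SD, n = 3 per group). The log2 fold change was 0.02 (SE 0.08, edgeR adjusted p = 0.896), and its 95% interval ran from -0.15 to 0.19. A change of 1.5-fold in either direction lay outside that interval.

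Dcstamp encodes the membrane protein DC-STAMP, which macrophages need to fuse into osteoclasts and into foreign body giant cells. It lies on chromosome 15 (39745930 to 39760938, GRCm38). Its level was 16.7, 7.73 and 9.31 CPM with lipids and 12.99, 15.7 and 6.84 CPM without. Each group held both high and low libraries, and the group ranges overlapped almost fully. The log2 fold change was -0.07 (SE 0.31, edgeR adjusted p = 0.911). The 95% interval of -0.75 to 0.61 covers a 1.5-fold change in either direction, so a difference of that size was not detectable with these libraries.

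The spread of Dcstamp inside groups was large for its level. Its pooled standard deviation within groups was 0.598 on the log2 scale, and the median was 0.128 over the 501 tested genes nearest to it in level. Of those genes 99.6% had a smaller value. The highest library exceeded the lowest by 2.44-fold, although the group means were nearly equal. For Nfatc1, Acp5, Ctsk and Mmp9 the same share was between 32.9% and 65.7%, and for Tnfrsf11a it was 84.4%.

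Ocstamp encodes OC-STAMP, a second membrane protein of osteoclast fusion. It had 5, 0 and 4 counts in the libraries with lipids and 3, 5 and 4 in those without. The sums of 9 and 12 counts lay under the filter, so the gene was not tested, and 2 of the 6 libraries were at or under 3 counts. The pair of fusion genes therefore differed in detection, with Dcstamp counted at 149 to 369 reads per library and Ocstamp at 0 to 5.

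Ctsk encodes cathepsin K, the protease with which osteoclasts cut bone collagen. It lies on the plus strand of chromosome 3 (95499256 to 95509362, GRCm38), and no annotated exon of another gene overlaps its exons. Ctsk was at 5.74, 7.65 and 6.13 CPM with lipids and 12.8, 12.2 and 11.6 CPM without. All libraries with lipids were below all libraries without. The means were 6.51 ± 1.01 and 12.2 ± 0.61 CPM (SD, n = 3 per group), with a log2 fold change at -0.90 (SE 0.12, edgeR adjusted p = 0.000964). This is 1.87-fold more without lipids. In RNA from whole cultures, fewer cells that express a gene and less RNA per cell cannot be told apart.

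Acp5 encodes TRAP, the tartrate-resistant acid phosphatase by which osteoclasts are stained. It lies on the minus strand of chromosome 9 (22126727 to 22135711, GRCm38). Its level was 2.08, 2.46 and 1.92 CPM with lipids and 3.42, 3.39 and 4.18 CPM without, and the groups did not overlap. The means were 2.15 ± 0.28 and 3.66 ± 0.45 CPM (SD, n = 3 per group), with a log2 fold change at -0.76 (SE 0.16, edgeR adjusted p = 0.0133), or 1.70-fold more without lipids. The gene rests on 41 to 91 counts per library. Its call was lost without replicate 1 or replicate 3 of the group with lipids (edgeR adjusted p = 0.0647 and 0.0662), with log2 fold changes of -0.74 and -0.69.

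Mmp9 encodes gelatinase B, a matrix metalloproteinase of osteoclasts and macrophages. It lies on chromosome 2 (164940780 to 164955850, GRCm38). Its level was 2.08, 2.04 and 2.81 CPM with lipids and 2.21, 2.97 and 3.12 CPM without. The groups overlapped, with 1 library of each group inside the range of the other. The log2 fold change was -0.27 (SE 0.19, 95% interval -0.70 to 0.15, edgeR adjusted p = 0.405). The interval covers 0 as well as a fall to -0.70, so these libraries did not tell no change from a fall. The Acp5 estimate of -0.76 lies just outside that interval. Mmp9 rests on 42 to 68 counts per library.

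Fibroblasts and other stromal cells also express Ctsk, so their markers are given beside it. Of 12 osteoblast and stroma markers 7 passed the filter, and the summed level was 127 to 135 CPM with lipids and 129 to 176 CPM without. The collagen gene Col3a1 was the marker that passed the test, lower with lipids at -0.50 (edgeR adjusted p = 0.014), with Col1a1 at -0.37 (edgeR adjusted p = 0.118) and Col1a2 at -0.19 (edgeR adjusted p = 0.261). Pdgfrb was at -0.21, Dcn at -0.20 and Cxcl12 at -0.03, with edgeR adjusted p-values of 0.394 to 0.928. Runx2 went the other way, at 0.26 (edgeR adjusted p = 0.359). The osteoblast genes Bglap and Sp7 had 3 and 4 counts over all 6 libraries. The part of stromal cells in the Ctsk difference was not tested.

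Because Ctsk and Acp5 were the members that passed the test, the bases before their start sites are shown. They come from RefSeq on GRCm38.p6, whose table held starts for 5 of the 9 genes (Tnfrsf11a, Oscar, Calcr, Acp5 and Ctsk). Each stretch is the 250 bases before a start, read 5′ to 3′ on the gene's strand, without overlap to an annotated exon. Capitals mark matches on either strand to GGAAA (the core bound by NFAT factors), GAGGAA (PU.1, which shares bases with GGAAA where an A follows), TGANTCA (AP-1), or the E-boxes CACGTG and CATGTG, a class bound by MITF.
Ctsk, chr3:95498960-95499209, plus strand: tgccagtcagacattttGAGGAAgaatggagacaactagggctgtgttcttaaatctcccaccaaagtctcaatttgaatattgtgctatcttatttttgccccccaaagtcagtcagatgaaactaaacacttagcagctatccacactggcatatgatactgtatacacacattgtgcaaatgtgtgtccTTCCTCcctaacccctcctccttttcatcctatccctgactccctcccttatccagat
Acp5, outer start, chr9:22135747-22135996, minus strand: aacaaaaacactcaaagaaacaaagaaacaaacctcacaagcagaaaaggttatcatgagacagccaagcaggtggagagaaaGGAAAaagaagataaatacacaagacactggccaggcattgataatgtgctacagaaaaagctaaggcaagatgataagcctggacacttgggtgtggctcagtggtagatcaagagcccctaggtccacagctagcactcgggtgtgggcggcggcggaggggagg
Acp5, inner start, chr9:22131866-22132115, minus strand: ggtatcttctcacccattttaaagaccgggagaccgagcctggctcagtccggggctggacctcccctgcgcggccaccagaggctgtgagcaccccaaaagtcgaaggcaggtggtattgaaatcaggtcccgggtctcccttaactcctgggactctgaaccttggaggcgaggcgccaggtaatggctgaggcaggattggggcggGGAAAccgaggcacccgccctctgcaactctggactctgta
The Ctsk stretch held 2 matches to GAGGAA, the first 233 bases before the start on the gene's strand and the second from base 58 on the opposite strand. Each Acp5 stretch held 1 match to GGAAA on the gene's strand, 167 bases before the outer start and 41 bases before the inner start. A further Acp5 start overlaps an exon of the gene and is not shown. Among 32817 starts in the table, GGAAA occurred in 55.6% of stretches of this length, GAGGAA in 23.3%, TGANTCA in 6.75%, CACGTG in 6.02% and CATGTG in 12.3%. The Ctsk and Acp5 stretches shared 0 of these motifs, and the matches they hold are frequent among promoters in general.

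Levels of different genes were compared per kilobase (kb) of annotated exon, as CPM per kb averaged over the group means. Tnfrsf11a stood at 27.1, above 86.3% of the tested genes, and its libraries lay apart from those of the next gene. Nfatc1 followed at 7.84, Ctsk at 6.20 and Dcstamp at 4.33, at the percentiles 59.4, 53.3 and 44.1. Nfatc1 lay above Dcstamp in all libraries, from 6.96 to 8.51 against 2.57 to 6.26. The place of Ctsk between them depended on the medium. With lipids Ctsk averaged 4.30 CPM per kb, with all libraries (3.80 to 5.06) below those of Nfatc1 (7.65 to 8.13) and inside the range of Dcstamp (2.90 to 6.26). Without lipids Ctsk averaged 8.09, with all libraries (7.68 to 8.49) above those of Dcstamp (2.57 to 5.89) and inside the range of Nfatc1 (6.96 to 8.51). Acp5 at 1.43 and Mmp9 at 0.717 lay lower, each apart from its neighbours. Oscar, Ocstamp and Calcr, at 0.0482, 0.0465 and 0, could not be ordered. On this scale Tnfrsf11a was 6.83-fold above Ctsk with lipids and 3.05-fold above it without. It was 27.7-fold above Acp5 with lipids and 13.7-fold without.

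**Figure D2:**
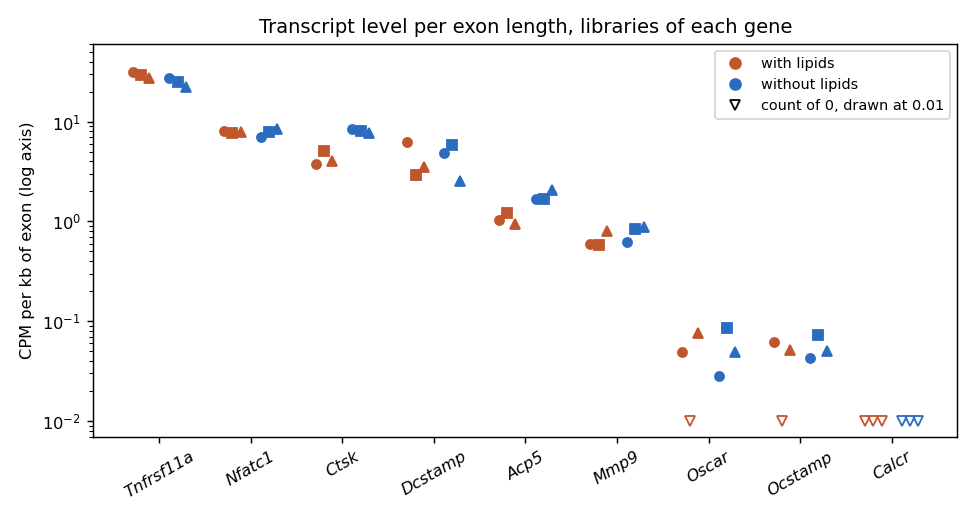
CPM per kb of exon on a log axis for each of the 9 genes, ordered from highest to lowest; each point is a library, with lipids in orange and without in blue, and open triangles are counts of 0 drawn at 0.01. Tnfrsf11a stands above the rest, Nfatc1 lies above Dcstamp, Ctsk lies with Dcstamp in the libraries with lipids and with Nfatc1 in those without, and Oscar, Ocstamp and Calcr sit at the bottom.

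The genes around these 9 were taken from 7 lists of the RANKL pathway, which together hold 114 genes besides the 9. The test covered 103 of them, with 5 higher (4.85%, against 4.58% of all tested genes) and 20 lower (19.4%, against 6.87%). Their median log2 fold change was -0.03 against -0.00321 over all tested genes. The share higher thus lay near that of genes at large. The lists were chosen with earlier results of these data known, so the share lower is not independent of those results. Shares over all tested genes also differed by setting. Scaling by totals called 9.72% of them higher and 4.67% lower, and the fit gave 12.0% higher and 15.1% lower without replicate 1 of the group without lipids. Between 1.69% and 2.03% were higher and between 3.27% and 3.75% lower without any 1 library with lipids or without replicate 2 of the other group, and 5.01% and 6.69% without its replicate 3. DESeq2 called 5.32% higher and 7.54% lower, and limma-voom 4.70% and 6.62%. The lists overlap in members and differed in what moved, as the plot of the lists shows.

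Among genes of RANKL signalling (ligand, receptors, adaptors, kinases and NF-κB subunits), 3 of 22 tested were lower and 0 higher by edgeR. These are 13.6% and 0%, against 6.87% and 4.58% of all tested genes. At an unadjusted p under 0.05 with edgeR, 7 were lower and 3 higher. DESeq2 gave 4 lower and 0 higher, and limma-voom 2 and 0. The ligand gene Tnfsf11 was under the filter with 22 counts over the libraries with lipids and 16 over those without. The decoy receptor gene Tnfrsf11b, whose product binds RANKL, was at 0.82 ± 0.14 and 0.74 ± 0.13 CPM (SD, n = 3 per group), with a log2 fold change at 0.13 (edgeR adjusted p = 0.816). Csf1r, the receptor for CSF1, was at 0.09 (edgeR adjusted p = 0.432), and Traf6 was at -0.00321 (edgeR adjusted p = 0.984). The genes that passed the test, all lower, were the kinase gene Src at -0.76 (edgeR adjusted p = 0.00189), Traf3, a brake on non-canonical NF-κB signalling, at -0.31 (edgeR adjusted p = 0.0387), and the NF-κB subunit gene Relb at -0.43 (edgeR adjusted p = 0.0477). With library totals alone 3 genes of this list were higher and 1 lower, and 3 were higher and 8 lower when replicate 1 without lipids was left out, so that the number higher lay near the share of all genes in both settings. In each of the 4 fits without a library with lipids or without replicate 2 of the other group, 1 was lower.

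The ITAM co-stimulation list, to which Oscar belongs, had 4 of 18 tested genes lower and 0 higher by edgeR, DESeq2 and limma-voom. With edgeR these are 22.2% and 0%, against 6.87% and 4.58% of all tested genes. At an unadjusted p under 0.05 with edgeR, 5 were lower and 3 higher. The 4 genes called by edgeR were the receptor gene Trem2 at -0.34, the adaptor gene Tyrobp (DAP12) at -0.23, the kinase gene Syk at -0.23 and the adaptor gene Blnk at -0.27. Their edgeR adjusted p-values were 0.0255 to 0.0471. Fcer1g, the adaptor with which OSCAR pairs, was at 692 ± 27.1 CPM in the presence of lipids and 763 ± 52.9 CPM in their absence (SD, n = 3 per group), with a log2 fold change at -0.14 (edgeR adjusted p = 0.193). The adaptor was thus abundant in libraries where Oscar was at the floor. The 4 calls became 0 with library totals alone, where 3 genes were higher, and 0 in each fit without a library with lipids or without replicate 2 of the other group. Leaving out replicate 3 without lipids left 1 call, and leaving out replicate 1 of that group gave 5 lower and 4 higher.

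Of 15 osteoclast transcription factor genes 2 were higher and 1 lower with lipids. These are 13.3% and 6.67%, against 4.58% and 6.87% of all tested genes, so the share lower lay near that of genes at large. Nfatc2, a relative of Nfatc1 that responds to calcium, rose by 0.36 (edgeR adjusted p = 0.0168), and the AP-1 gene Fosl2 by 0.39 (edgeR adjusted p = 0.0197). Jun, another AP-1 gene, fell by 0.49 on the log2 scale (edgeR adjusted p = 0.0053). Fos, which acts upstream of Nfatc1, was at -0.07 (edgeR adjusted p = 0.721), and Mitf, which acts with PU.1 at osteoclast genes, at 0.02 (edgeR adjusted p = 0.894). The number higher was 0 without replicate 1 of the group with lipids, and the number lower was 6 without replicate 1 of the other group.

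Of 16 inhibitors of osteoclast formation 3 were lower and 1 higher with lipids. These are 18.8% and 6.25%, against 6.87% and 4.58% of all tested genes. Tnfaip3 (A20), which restrains NF-κB, changed by -0.95 (edgeR adjusted p = 6.28e-05), and Id2, an inhibitor of basic helix-loop-helix factors, by -0.72 (edgeR adjusted p = 0.000767). Rcan1, which NFAT induces and which inhibits calcineurin, changed by -0.29 (edgeR adjusted p = 0.0327). Lgr4, a receptor that can bind RANKL, rose by 0.79 (edgeR adjusted p = 0.0363) from 1.54 ± 0.41 to 2.69 ± 0.39 CPM (SD, n = 3 per group). Irf8 and Bcl6, repressor genes that are switched off during osteoclast formation, had log2 fold changes of -0.23 (edgeR adjusted p = 0.179) and 0.06 (edgeR adjusted p = 0.659), neither past the threshold. The level of Irf8 averaged 96.6 CPM in the lipid libraries and 113 CPM in the others. With library totals alone 3 inhibitors were higher and 2 lower, and leaving out single libraries gave 0 to 2 higher and 2 to 4 lower.

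Among genes of cell fusion, the list that holds Dcstamp and Ocstamp, 4 of 18 tested genes were lower with lipids and 2 were higher. These are 22.2% and 11.1%, against 6.87% and 4.58% of all tested genes. Atp6v0d2, a proton pump subunit also needed for fusion, was at 42.1 ± 0.9 CPM in the presence of lipids and 120 ± 9.2 CPM in their absence (SD, n = 3 per group), with a log2 fold change at -1.51 (SE 0.07, edgeR adjusted p = 1.92e-06). Itgb3, the β3 integrin chain, changed by -0.95 (edgeR adjusted p = 0.000547), the tetraspanin gene Cd9 by -0.47 (edgeR adjusted p = 0.000705) and Sirpa, which binds CD47, by -0.25 (edgeR adjusted p = 0.0139). The metalloprotease gene Adam9 rose by 0.29 (edgeR adjusted p = 0.00541) and Sh3pxd2a, a podosome scaffold, by 0.30 (edgeR adjusted p = 0.0096). With library totals alone 4 were higher and 3 lower. Leaving out replicate 1 without lipids gave 5 higher and 5 lower, and leaving out any library with lipids gave 1 higher and 3 lower.

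Genes of acid secretion, matrix proteases and attachment, the list that holds Acp5, Ctsk and Mmp9, had the highest share of calls of the 7 lists. Of 19 tested 9 were lower and 0 higher by edgeR, DESeq2 and limma-voom. With edgeR these are 47.4% and 0%, against 6.87% and 4.58% of all tested genes. At an unadjusted p under 0.05 with edgeR, 12 were lower and 0 higher. The list median was -0.27. Without the 3 genes and Atp6v0d2, 6 of 15 were lower and the median was -0.22. Several of these genes also serve ordinary lysosomes, for which lower values with lipids were already known in these data, so the count is not independent of that. Clcn7, a chloride-proton exchanger of lysosomes and of the resorbing membrane, fell from 319 ± 12.4 to 209 ± 6.2 CPM (SD, n = 3 per group), with a log2 fold change at -0.61 (edgeR adjusted p = 7.85e-05). Tcirg1, the proton pump subunit of the ruffled border, changed by -0.45 (edgeR adjusted p = 0.00524), and Slc9b2, a sodium-proton exchanger that rises in osteoclasts, by -0.88 (edgeR adjusted p = 0.000206). Itgav, the integrin chain that pairs with β3, was at 0.20 (edgeR adjusted p = 0.252) while Itgb3 was lower. Car2 had 20 counts over the libraries with lipids and 12 over those without, and was not tested. The number lower was 8 with library totals alone and 7 to 12 when single libraries were left out, with 0 or 1 higher.

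**Figure D3:**
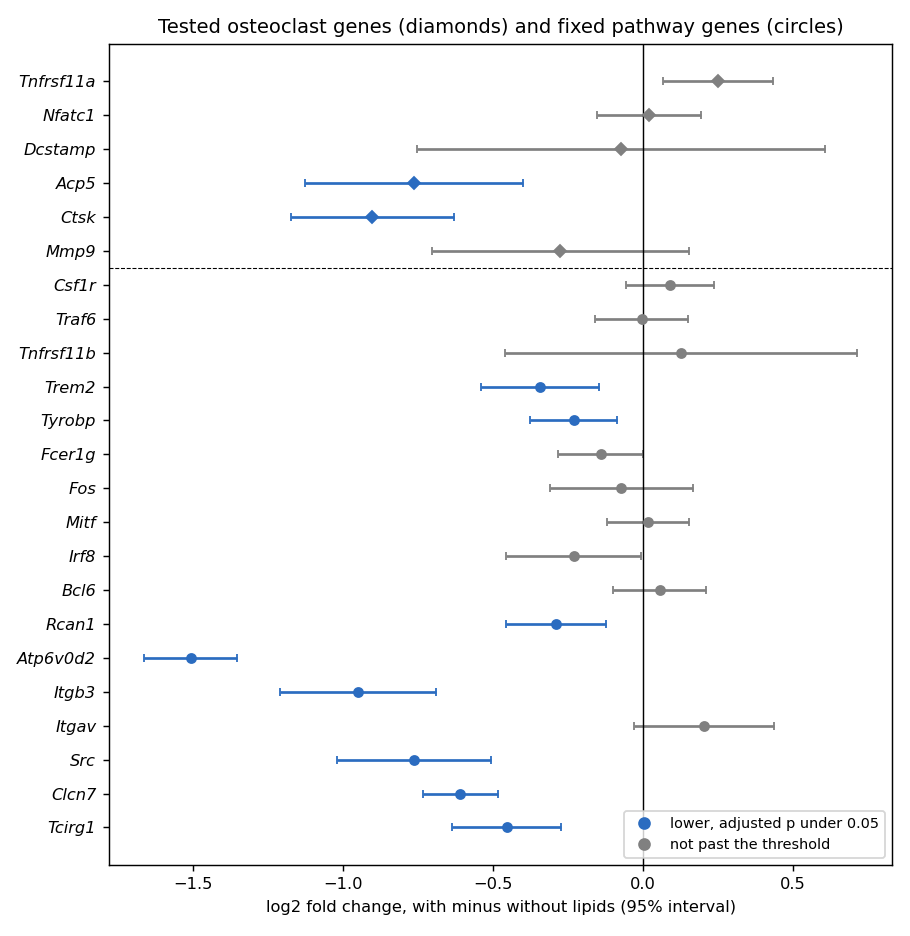
Log2 fold change (with minus without lipids) and 95% interval from edgeR for the 6 tested osteoclast genes (diamonds) and 17 pathway genes (circles), blue where lower at an adjusted p under 0.05 and grey where not past it. Ctsk and Acp5 lie with Itgb3, Src and Clcn7 left of 0, while Nfatc1, Mitf and Traf6 lie at 0 with narrow intervals. The pathway genes called higher (Adam9, Sh3pxd2a, Nfatc2, Fosl2 and Lgr4) are not among those plotted.

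**Figure D4:**
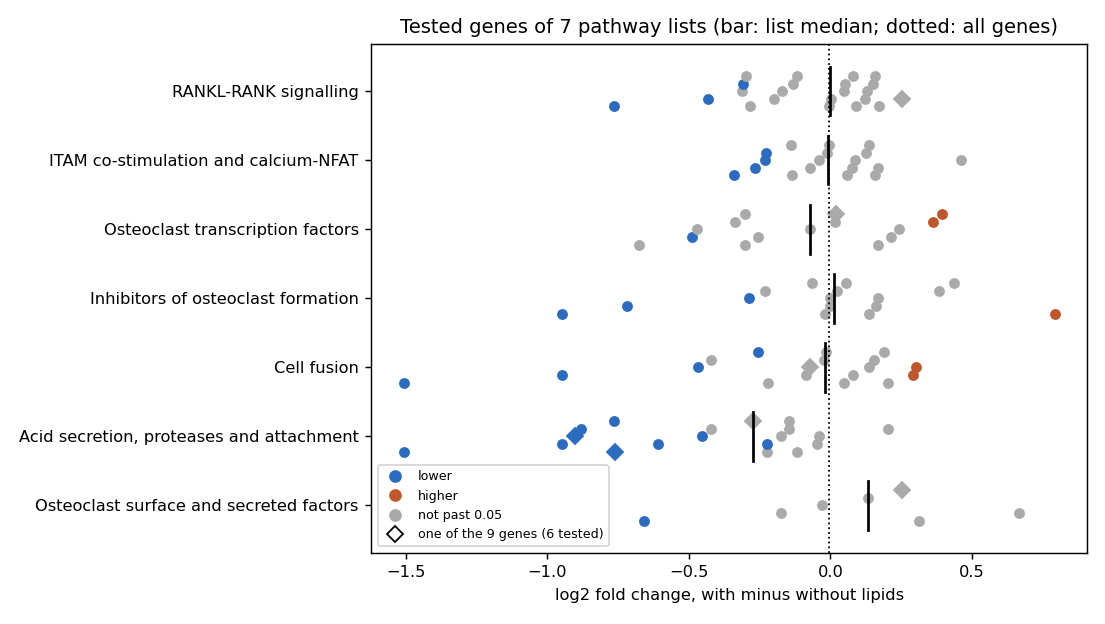
Log2 fold changes (with minus without lipids) of all tested genes in the 7 pathway lists, with diamonds for the 6 of the 9 osteoclast genes that were tested, bars for list medians and a dotted line for the median of all tested genes. The bar of the acid, protease and attachment list lies at -0.27, and those of the RANKL and ITAM lists lie on the dotted line.

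Of 14 osteoclast surface and secreted factors 7 were tested, with 1 lower (14.3%, against 6.87% of all tested genes) and 0 higher (against 4.58%). The lower gene was the semaphorin gene Sema4d, at -0.66 (edgeR adjusted p = 0.00011). Osteoclasts use its product to restrain bone formation, and it is also common on other blood cells. It was at 333 ± 9.8 CPM in the presence of lipids and 526 ± 40.9 CPM in their absence (SD, n = 3 per group).

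The genes most like Ctsk and Acp5 were found by the root mean square difference of centred log2 CPM over the 6 libraries, among 9486 protein-coding genes with a mean of at least 5 CPM. For Ctsk they included Slc9b2 at 0.0892 and Vash2 at 0.0988, where the median gene lay at 0.484. Slc9b2 was at 8.86, 9.76 and 8.98 CPM with lipids and 17.4, 17.8 and 15.8 CPM without. For Acp5 they were Dkk3 at 0.0773, the oxysterol receptor gene Nr1h3 at 0.113 and the stress factor gene Atf3 at 0.132, with the median gene at 0.417. The genes named here were lower with lipids at edgeR adjusted p-values of 0.00335 or below, a direction that the choice by likeness fixes.

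**Figure D5:**
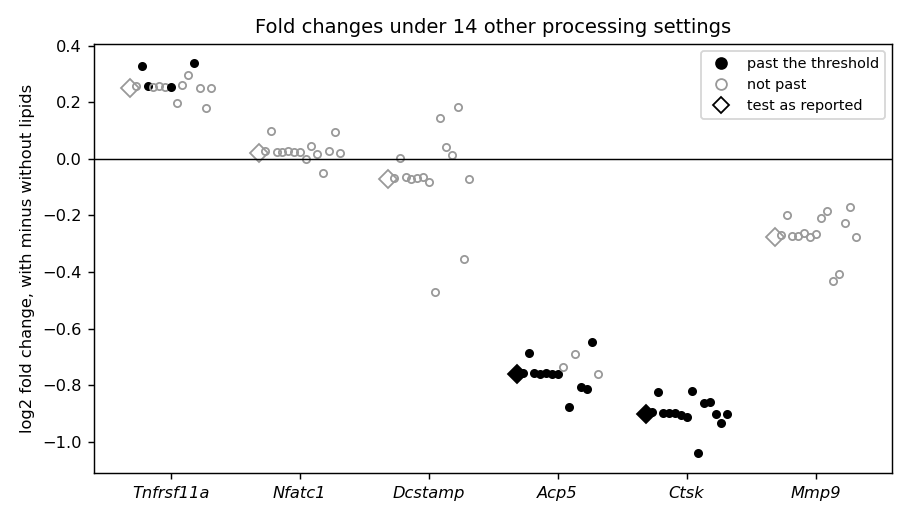
Log2 fold changes (with minus without lipids) of the 6 tested osteoclast genes as reported (diamonds) and under 14 other settings (circles), filled where past the threshold. Ctsk stays between -1.04 and -0.82 and past the threshold in all 14, while Dcstamp lies on both sides of 0.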

How the data were processed

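The authors deposited raw counts per Ensembl gene for 6 libraries. The kit was a stranded mRNA kit, per the labels' protocols. The build GRCm38.p4 and the tools HTSeq, DESeq2 and TopHat2 2.1.0 appear in the submitters' processing notes, without roles. Neither strand setting nor annotation release is given in the sources used here. Symbols, coordinates and exon lengths came from GENCODE M21 (GRCm38), where 46091 of 46603 identifiers matched. The 9 genes and all lists were chosen with earlier results of these data known.

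Genes were kept by filterByExpr (minimum count 10, minimum total 15), scaled by TMM and tested with edgeR 4.0.16 in R 4.3.3 (two-sided quasi-likelihood F test, p-values adjusted by Benjamini-Hochberg over 12767 genes). The steps were tested on simulated data with 50 genes changed at each fold. Of these, 28% were recovered at 1.25-fold, 72% at 1.5-fold and 98% at 2-fold. There were 13 false calls among 162 calls. Standard errors came from the F statistic, and 95% intervals are not adjusted for the number of genes. CPM are TMM-scaled, and totals include unmatched identifiers. Named pathway genes were up to 4 non-members per list with the smallest p past the threshold, plus a fixed panel, and some genes of these rules are not reported here. Marker genes named beside Ctsk and the genes named for Dcstamp were chosen after their values were seen.

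Alternatives were median-of-ratios scaling, library totals, no filter, 1 CPM in 3 libraries, DESeq2 1.42.0, limma-voom (limma 3.58.1), a replicate block, each library left out, and an adjusted p of 0.01.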

Additional observations from a re-analysis of the deposited data

How the results depend on the processing

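Ctsk stayed lower and past the threshold in 14 of 14 alternatives (-1.04 to -0.82), and Mmp9 stayed negative and not past it in 14. Acp5 stayed negative in 14 (-0.88 to -0.65) and lost its call in 3, the omission of replicate 1 or 3 with lipids and an adjusted p of 0.01. Tnfrsf11a was positive in 14 (0.18 to 0.34) and passed in 4. Dcstamp was at 0.00484 with library totals alone and between -0.47 and 0.18 with a library left out, and Nfatc1 between -0.049 and 0.10 then, and neither passed. The number of the 9 genes lower was 1 at an adjusted p of 0.01 and 1 to 2 with a library left out. Under scaling by totals, with no filter and with the replicate block 1 of the 9 was higher, Tnfrsf11a, and 0 to 1 were higher with a library left out.

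Over all genes 585 were higher and 877 lower. Scaling by totals turned this balance around, with 1241 higher and 596 lower, and 1009 were higher and 1243 lower with no filter. At an adjusted p of 0.01, 216 were higher and 444 lower. Leaving out a library gave 219 to 1566 higher and 423 to 1975 lower. The cause was not tested. Scaling by totals moved the median of all genes to 0.07.

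Same-numbered libraries deviated from their group means with correlations of -0.05, -0.17 and 0.22. Libraries of unlike number ranged from -0.17 to 0.24. With 3 libraries per group these values cannot tell whether the numbers pair the libraries, and the labels do not say. With the replicate block 1 of the 9 genes was higher, Tnfrsf11a at 0.25 (edgeR adjusted p = 0.0235), and 715 genes were higher and 937 lower over all genes. Oscar, Ocstamp and Calcr stayed at 0 to 5 counts per library, too few to pass the filter.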

Other observations

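Likeness was also computed for Dcstamp, which did not pass the test, after its values were seen. Over the 6 libraries its centred profile lay closest to the growth factor-responsive genes Myc, at a root mean square difference of 0.197 on the log2 scale, and Dusp5, a phosphatase that ERK signalling induces, at 0.233, and to the chemokine gene Ccl2 at 0.234. The median gene lay at 0.505. Myc was at 14.8, 9.30 and 10.2 CPM with lipids and 11.7, 12.6 and 6.38 CPM without. Its lowest value lay in the library where Dcstamp was lowest and its highest where Dcstamp was highest, a match that the choice by likeness favours. None of these 3 genes passed the test between media, with edgeR adjusted p-values of 0.636 to 0.700. What varied between replicates of a group was not tested.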
